A study of Homo sapiens with 6 samples.

Results

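The genes described here are 7 human endogenous retrovirus envelope genes, ERVV-1, ERVV-2, ERVW-1, ERVFRD-1, ERV3-1, ERVMER34-1 and ERVH48-1. They were found by symbol among the 39396 gene rows of the deposited count table, and all 7 had a row. The table held 6 RNA sequencing libraries of RKO, a human colorectal carcinoma line whose genotype is labelled WT. In 3 libraries the cells were treated with olaparib, an inhibitor of the PARP enzymes that sense DNA strand breaks, and in 3 with DMSO, its solvent. All wells were plated the day before treatment in EMEM with serum and antibiotics. The labels used here give neither the dose nor the length of treatment. Nothing says that the replicates came from separate cultures, so the spread between libraries may be technical. The genes were picked with their difference between the groups in view, so their own counts and fold changes are given as a description, with no test.

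Endogenous retroviruses are remnants of retroviruses that once infected the germ line, and a few still carry an open envelope reading frame. An envelope protein is cut by a furin-like convertase into a surface subunit, which binds a receptor on another cell, and a transmembrane subunit, which drives membrane fusion. ERVW-1 encodes syncytin-1 and ERVFRD-1 encodes syncytin-2, the fusion proteins with which placental trophoblasts form a syncytium. ERVH48-1 encodes suppressyn, a secreted inhibitor of syncytin-1, and ERVMER34-1 encodes HEMO, an envelope protein shed from the cell surface. In most adult tissues such loci are kept silent by DNA methylation and by KRAB zinc finger proteins, which recruit the co-repressor TRIM28.

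The libraries totalled 28715138 to 31387990 counts in the olaparib group and 29544974 to 42423785 in the DMSO group. Genes with 2 counts outnumbered those with 1 in each library, which happens where the mates of a read pair are counted separately, so the count intervals below understate the error and hold counting error alone. Between the groups, 75.7% of the 17078 genes tested were called at an adjusted p of 0.05 with edgeR's quasi-likelihood test and Benjamini-Hochberg adjustment, 35.4% higher and 40.3% lower in olaparib. Markers of the labelled tissue were unevenly present. CDX2, the intestinal homeobox factor, held no olaparib count, against 2835 DMSO counts, and CDX1 held none in either group. Of 14 colon epithelium markers, 7 were tested, with 4 called higher and 2 lower, and their summed level was 825 to 1101 CPM (counts scaled to library size) in olaparib libraries and 275 to 338 CPM in DMSO libraries. The keratins KRT8 and KRT18, which many epithelia express, made up most of that sum, and the other 12 markers summed to 19.3 to 21.5 CPM in olaparib and 54.0 to 67.0 CPM in DMSO. MUC2, an intestinal mucin, and EPCAM, an epithelial adhesion protein, were called higher, with 462 and 411 counts in olaparib and 3 and 114 in DMSO. Of 10 genes known to be expressed in embryonic kidney cell lines, 9 were called lower and 1, PAX8, higher, with summed levels of 36.0 to 38.5 CPM in olaparib libraries and 321 to 535 CPM in DMSO libraries. PAX2, SALL1, NEFL and LIN28B of that list held no olaparib count. Like CDX2, they passed edgeR's expression filter through DMSO libraries alone, so they could be called only lower. MUC2 passed it through olaparib libraries alone. Both marker lists were chosen with earlier results of these data known. A difference in cell source cannot be told apart from the treatment in any comparison below, nor can fewer cells that express a gene be told apart from less RNA per cell.

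ERVV-1 and ERVV-2 are neighbouring copies on the plus strand of chromosome 19, and their sequence decides how far reads can be assigned to either. In GENCODE release 29 on hg38, the build of the files, ERVV-1 (ENSG00000269526.1) is 1 exon at chr19:53013921-53016122 and ERVV-2 (ENSG00000268964.1) lies at chr19:53044738-53051076. Their transcripts, 2202 and 2431 bases long, aligned over 2000 columns, of which 95.5% were identical. Both start codons fell in the same column. Over the next 1200 columns there were 3 mismatches and 0 gaps, whereas the remaining 630 columns were 86.7% identical. The opening 90 bases of the reading frames, at chr19:53014091-53014180 for ERVV-1 and chr19:53049252-53049341 for ERVV-2 on GRCh38, are shown because they were the same in both genes, as the lack of capitals marks.
ERVV-1 start of frame: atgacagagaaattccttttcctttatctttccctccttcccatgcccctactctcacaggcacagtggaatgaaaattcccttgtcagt
ERVV-2 start of frame: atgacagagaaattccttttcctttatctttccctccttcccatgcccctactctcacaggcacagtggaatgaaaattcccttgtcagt

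The stretch where the ERVV-1 reading frame ends, chr19:53015406-53015524 in ERVV-1 and chr19:53050570-53050687 in ERVV-2, is shown because reads from it can be told apart. Capitals mark the bases that differ from the other gene or face a gap, 15 of 119 in ERVV-1 and 14 of 118 in ERVV-2.
ERVV-1 end of frame: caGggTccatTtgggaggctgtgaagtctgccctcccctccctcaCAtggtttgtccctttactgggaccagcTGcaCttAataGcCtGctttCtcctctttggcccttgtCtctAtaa
ERVV-2 aligned stretch: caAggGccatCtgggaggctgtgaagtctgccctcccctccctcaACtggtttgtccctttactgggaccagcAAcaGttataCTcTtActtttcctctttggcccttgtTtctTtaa

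The ERVV-2 stop codon lay 173 aligned columns further on. Of all 75-base stretches of the ERVV-1 transcript, 46.6% occurred letter for letter in the ERVV-2 transcript, and 37.3% of the 150-base stretches did. The sources used here give neither the read length nor the treatment of reads with several matches, so how counts are split between the pair is uncertain.

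**Figure D1:**
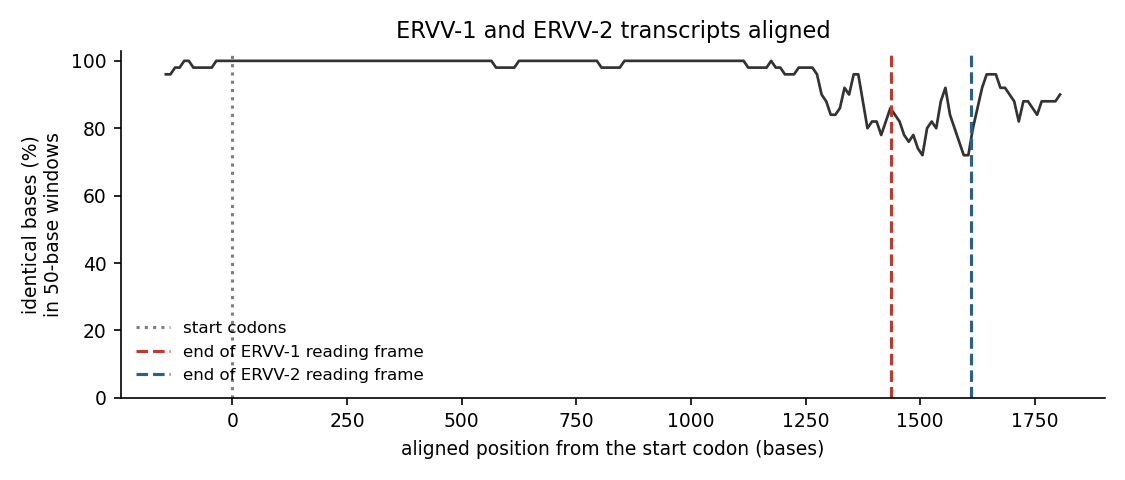
Identity of the ERVV-1 and ERVV-2 transcripts in windows of 50 aligned columns (y axis, percent) against the aligned position from the start codon (x axis, bases). The dotted line marks the start codons and the dashed lines the ends of the ERVV-1 and ERVV-2 reading frames; identity is near 100% over the opening 1200 columns and falls in the stretch that holds both stop codons.

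ERVV-2 had 1687, 2676 and 2184 counts in olaparib replicates 1, 2 and 3, against 0, 2 and 0 counts in DMSO replicates 1, 2 and 3. ERVV-1 had 9, 32 and 32 counts in the olaparib libraries, against 2, 0 and 0 in the DMSO libraries. Both copies were thus read in each olaparib library and in a single DMSO library each, and the groups did not overlap. ERVV-2 averaged 74.5 ± 14.5 CPM in olaparib and 0.0225 ± 0.0389 CPM in DMSO (SD, n = 3 each), and its fitted log2 fold change was 11.80 ± 0.37 (SE). That value depends on the 2 counts of DMSO replicate 2. Without that library no DMSO count was left, and the log2 fold change, with the DMSO group set to 3 counts as its upper limit, was at least 11.07. It was 11.18 without DMSO replicate 3. The summed ERVV-1 counts, 73 against 2, gave a ratio of 48.4 between the groups (95% counting interval 12.9 to 407), or a log2 ratio of 5.60. Without DMSO replicate 1 no DMSO count was left, and the log2 ratio, by the same limit, was at least 4.36. It was 4.90 without DMSO replicate 3. ERVV-1 did not pass the expression filter.

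Within the pair, ERVV-2 held nearly all counts. ERVV-1 made up 0.531% of their joint counts in olaparib replicate 1 (exact binomial 95% interval 0.243 to 1.00), 1.18% in replicate 2 (0.810 to 1.66) and 1.44% in replicate 3 (0.990 to 2.03). The lowest share was in the library with the fewest ERVV-2 counts. Since much of the sequence is shared, these shares depend on the counting rule as well as on the transcripts.

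**Figure D2:**
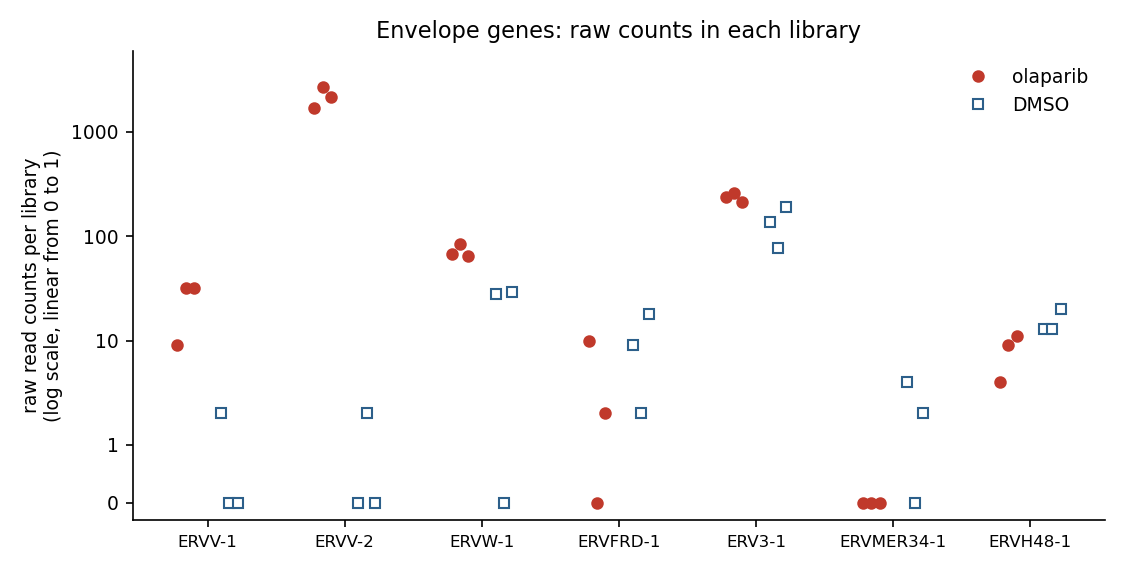
Raw read counts of the 7 envelope genes in each library (y axis, log scale that is linear between 0 and 1), with olaparib libraries as filled circles left of the DMSO libraries as open squares. ERVV-2 stands at 1687 to 2676 counts in olaparib and 0 to 2 in DMSO, while ERVFRD-1, ERVMER34-1 and ERVH48-1 stay at or below 20 counts in all 6 libraries.

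The genes around the pair were higher as well. Of 21 other genes of the table within 250 kb, 6 had no count, 11 were tested, and 10 of those rose, all of them zinc finger genes, with a median log2 fold change of 2.29 over the 11 against -0.09 over all genes tested. Only NDUFV2P1, a pseudogene named after its value was seen, was not called there. ZNF702P, ZNF600 and ZNF665, described below, passed the expression filter through their olaparib libraries alone, so they could be called only higher. Over the whole table, 30.8% of the 503 tested genes whose symbol begins with ZNF were called higher, and 27.2% of the 228 on chromosome 19. Among all genes tested, 35.4% were called higher. The count of 10 was 9 without olaparib replicate 1 or 3 and without DMSO replicate 1 or 3.

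ZNF702P, a zinc finger pseudogene, overlaps ERVV-1 on the opposite strand and shares 0 exon bases with it. It had 593, 676 and 679 counts in olaparib libraries, against 2, 1 and 2 in DMSO libraries. Its log2 fold change was 8.90 ± 0.27 (adjusted p = 1.81e-10, edgeR's quasi-likelihood test). ZNF160, the nearest tested gene beyond ERVV-2 at 15.5 kb, averaged 38.7 ± 3.96 CPM in olaparib and 7.87 ± 0.838 CPM in DMSO. The nearest tested gene on the other side of the pair that does not overlap it, ZNF816, averaged 8.81 ± 0.826 CPM in olaparib and 1.75 ± 0.249 CPM in DMSO. Both rose, by 2.29 ± 0.14 and 2.32 ± 0.21 on the log2 scale (adjusted p = 2.32e-08 and 9.12e-07, edgeR).

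The cluster did not move by a common amount. ZNF600 and ZNF665, named after their values were seen, lie on opposite sides of the pair, 227 kb from ERVV-1 and 108 kb from ERVV-2. Like ERVV-2, they were nearly unread in DMSO. ZNF600 had 322, 371 and 327 counts in olaparib, against 2, 3 and 3 in DMSO. ZNF665 had 37, 82 and 66 counts in olaparib and none in DMSO, at least 81.7-fold higher when the DMSO group is set to 3 counts in all. ZNF816 and ZNF320, the second named after its values were seen, were read in each DMSO library, at 49 to 90 and 434 to 767 counts. Between ZNF160 and ZNF665, the untested ZNF347 had 11 counts in olaparib and none in DMSO, and ZNF415 had 1 count in olaparib and none in DMSO; both were named after their values were seen.

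**Figure D3:**
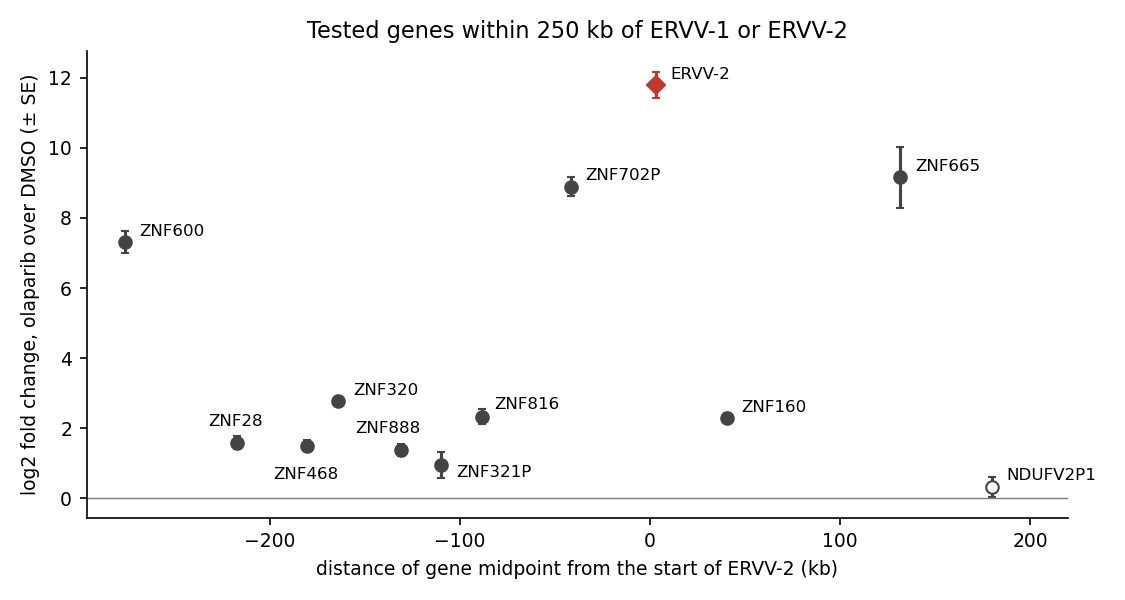
Log2 fold change of olaparib over DMSO with its SE (y axis) for each tested gene within 250 kb of ERVV-1 or ERVV-2, against the distance of its midpoint from the start of ERVV-2 (x axis, kb). The diamond is ERVV-2, filled circles are genes called higher and the open circle is a gene not called; ZNF702P, ZNF600 and ZNF665 stand above the rest of the neighbours.

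ERVW-1, which encodes syncytin-1 and lies at chr7:92468380-92477986 on the minus strand, had 67, 85 and 64 counts in the olaparib libraries. In the DMSO libraries it had 28, 0 and 29 counts. All olaparib libraries lay above all DMSO libraries, and DMSO replicate 2 stood apart with no count. Its mean was 2.46 ± 0.277 CPM in olaparib and 0.440 ± 0.381 CPM in DMSO (SD, n = 3 each), a fitted log2 fold change of 2.40 ± 0.61. The summed counts gave a ratio of 5.02 (95% counting interval 3.74 to 6.85), and limma-voom gave a log2 fold change of 3.42.

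ERVFRD-1, which encodes syncytin-2 and lies at chr6:11102489-11111732 within SMIM13 on the opposite strand, was close to the limit of detection. It had 10, 0 and 2 counts in olaparib and 9, 2 and 18 in DMSO. The groups overlapped, and the ratio of 0.548 had a 95% counting interval of 0.255 to 1.11, so no difference could be told at this depth. The gene did not pass the expression filter. Groups overlapped for syncytin-2 and not for syncytin-1, and whether the 2 genes differ in their change was not tested.

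ERVH48-1, the suppressyn gene at chr21:42916803-42925646, is listed as a lincRNA in GENCODE 29. It had 4, 9 and 11 counts in olaparib and 13, 13 and 20 in DMSO. On the CPM scale the groups overlapped, at 0.274 ± 0.126 CPM in olaparib and 0.400 ± 0.0791 CPM in DMSO. The log2 fold change was -0.53 ± 0.52, and the ratio of summed counts had a 95% counting interval of 0.404 to 1.16.

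ERV3-1, an envelope gene of the ERV-R family at chr7:64990809-65006743 on the minus strand, had the most counts of the 7 in each DMSO library. It had 236, 259 and 211 counts in olaparib, against 136, 77 and 189 in DMSO. Scaled to library size, these were 8.23, 8.46 and 7.47 CPM in olaparib and 3.23, 2.60 and 4.27 CPM in DMSO, with no overlap. The log2 fold change was 1.25 ± 0.22, or 2.38-fold. ZNF117, a zinc finger gene on the same strand, overlaps ERV3-1 and shares 372 exon bases with it, so the 2 rows may hold the same reads.

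ERVMER34-1, the HEMO gene at chr4:52722618-52751640, had no count in the 3 olaparib libraries and 4, 0 and 2 counts in the DMSO libraries. With a zero in each group the libraries overlapped, and the ratio between olaparib and DMSO was limited only to below 1.13 (95% counting interval). At this depth a difference was not detectable.

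Of the 7 genes, 4 passed the expression filter, ERVV-2 through its olaparib libraries alone. ERVV-1, ERVV-2, ERVW-1 and ERV3-1 had olaparib libraries entirely above DMSO libraries, as had 37.3% of all genes tested. Nothing is read from this count, since the genes were chosen on this contrast.

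Levels can be ranked between the genes per kilobase of annotated exon. In olaparib, ERVV-2 led at 30.7 ± 5.96 CPM per kb, followed by ERV3-1 at 1.76 ± 0.114, ERVW-1 at 0.401 ± 0.0452 and ERVV-1 at 0.377 ± 0.204 CPM per kb. ERVW-1 and ERVV-1 overlapped, as did ERVH48-1, ERVFRD-1 and ERVMER34-1, which stayed at or below 0.137 CPM per kb in each library. In DMSO, ERV3-1 led at 0.736 ± 0.185 CPM per kb, ahead of ERVH48-1 at 0.141 ± 0.0278 CPM per kb. The other 5 genes had means of 0.0718 CPM per kb or less, and neighbours in their order overlapped. ERVFRD-1 also overlapped with ERVH48-1, reaching 0.126 CPM per kb in 1 DMSO library. ERVV-2 thus stood at the top in olaparib and among the lowest in DMSO.

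The windows of the other envelope genes are given side by side, with no test between them. For comparison with each count below, 35.4% of all genes tested rose and 40.3% fell. Near ERVW-1, 4 of 7 tested genes rose and 0 fell. GATAD1, 8.95 kb away, had a log2 fold change of -0.00 ± 0.10 (adjusted p = 0.990, edgeR). Near ERV3-1, 2 of 6 rose, namely ZNF117 at 0.61 ± 0.21 (adjusted p = 0.0196) and CCT6P3 at 0.59 ± 0.23 (adjusted p = 0.0356, edgeR), and ZNF273, the nearest on the other side, fell by 1.11 ± 0.17 on the log2 scale. The call of ZNF117 was lost without DMSO replicate 1 (log2 fold change 0.50) and without DMSO replicate 2 (0.54). That of CCT6P3 was lost with library size alone (0.52) and when any library but DMSO replicate 2 was left out, at 0.38 to 0.65.

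Around ERVFRD-1, 1 of 5 tested genes rose and 4 fell, among them SMIM13, whose introns hold ERVFRD-1, with a log2 fold change of -0.34 ± 0.10 (adjusted p = 0.00684, edgeR). Its nearest tested flanks were ELOVL2, a fatty acid elongase with 2 olaparib counts against 2065 DMSO counts, and NEDD9, a scaffold protein of cell adhesion, which rose by 1.91 ± 0.16. Near ERVMER34-1, 0 of 5 rose and 4 fell, with DANCR, a non-coding RNA, at -1.57 ± 0.11 and RASL11B without an olaparib count. Near ERVH48-1, 1 of 7 rose and 5 fell, including NDUFV3, a subunit of respiratory complex I, at -1.53 ± 0.13 and the homeobox gene PKNOX1 at -0.41 ± 0.11. The median log2 fold changes of these windows were 0.72 for ERVW-1, -0.17 for ERV3-1, -0.74 for ERVFRD-1, -1.01 for ERVMER34-1 and -0.51 for ERVH48-1. The median over all genes tested was -0.09.

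**Figure D4:**
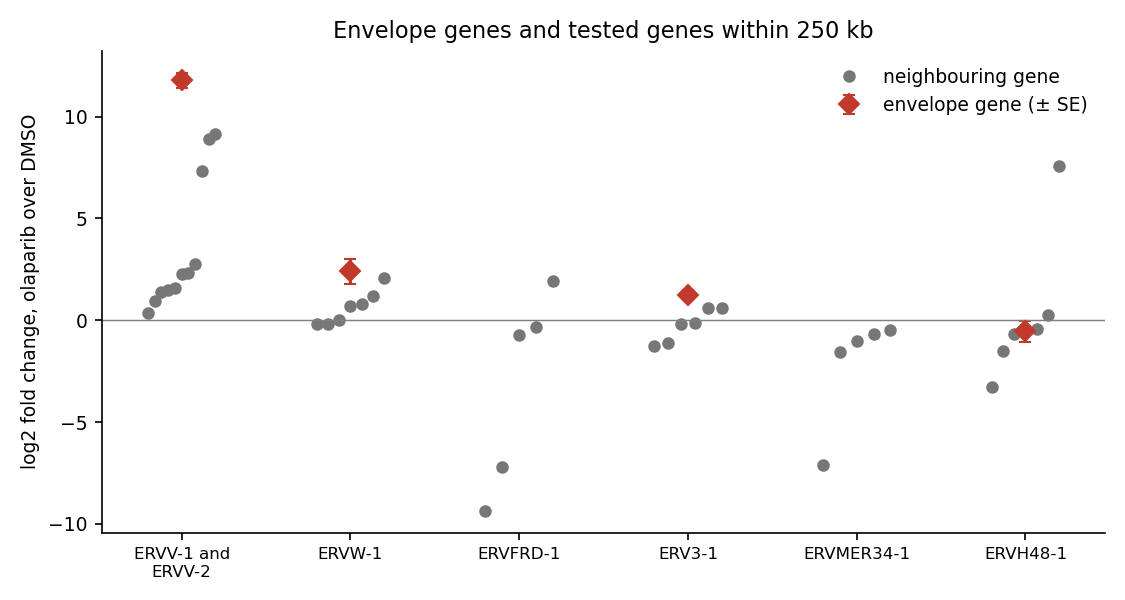
Log2 fold change of olaparib over DMSO (y axis) for tested genes within 250 kb of each envelope gene (grey circles) and for the envelope genes that passed the expression filter (diamonds with SE). The ERVV window has no neighbour below 0, whereas the windows of ERVFRD-1, ERVMER34-1 and ERVH48-1 have most of theirs below 0.

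The known receptors of the syncytins were not higher in olaparib. SLC1A5, which encodes ASCT2, the neutral amino acid transporter bound by syncytin-1 and by suppressyn, had 192 ± 21.8 CPM in olaparib and 287 ± 24.1 CPM in DMSO, a log2 fold change of -0.58 ± 0.12 (adjusted p = 6.05e-04, edgeR). SLC1A4, or ASCT1, also used by syncytin-1, had 56.7 ± 4.68 CPM in olaparib and 65.2 ± 7.79 CPM in DMSO, and its log2 fold change of -0.20 ± 0.12 did not pass (adjusted p = 0.132, edgeR), although it did without DMSO replicate 1 (-0.31). MFSD2A, a lipid transporter and the receptor of syncytin-2, fell to 2.27 ± 0.750 CPM in olaparib, against 12.7 ± 0.709 CPM in DMSO, a log2 fold change of -2.48 ± 0.23 (adjusted p = 1.02e-06, edgeR). Thus 2 of 3 receptors fell, where 40.3% of all genes tested did, with a median of -0.58 over the 3.

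Among 4 proprotein convertases, which cut envelope precursors or like substrates, 1 rose and 1 fell, with a median log2 fold change of -0.06. Over all genes tested, 35.4% rose and 40.3% fell. FURIN rose to 340 ± 1.71 CPM in olaparib, against 113 ± 4.56 CPM in DMSO (log2 fold change 1.59 ± 0.10, adjusted p = 2.41e-08, edgeR). PCSK5 fell to 0.347 ± 0.194 CPM in olaparib, against 17.9 ± 2.83 CPM in DMSO. PCSK6 at -0.37 (adjusted p = 0.0614) and PCSK7 at 0.26 (adjusted p = 0.0676) were not called by edgeR. PCSK7 was called higher without olaparib replicate 1 or DMSO replicate 3, which gave 2 rises, and PCSK6 was called lower without olaparib replicate 2 or DMSO replicate 2, which gave 2 falls.

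A list of 26 genes that set or remove silencing marks on retroelements, all tested, moved in both directions. Of these, 11 rose, 9 fell and 6 were not called, where 35.4% of all genes tested rose and 40.3% fell. The median log2 fold change was -0.15, against -0.09 over all genes tested. TRIM28 had 402 ± 13.4 CPM in olaparib and 947 ± 75.6 CPM in DMSO, a log2 fold change of -1.24 ± 0.11. MPHOSPH8, a subunit of the HUSH silencing complex, rose by 1.24 ± 0.10, and SMCHD1, a chromatin protein of the silent X chromosome and of imprinted genes, rose by 1.64 ± 0.15. The list also holds TET1, TET2 and TET3, which oxidise methylcytosine and so oppose silencing. TET1 was lower, with 16 olaparib counts against 2350 DMSO counts, while TET2 and TET3, named after their values were seen, are among the rises. DNMT1, the maintenance methyltransferase, singled out after its value was seen, was called lower with a log2 fold change of -0.46.

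Restriction factors, which block steps of retroviral infection, and sensors of foreign nucleic acid made up a list of 24, of which 19 were tested, with 11 rises, 4 falls and 4 not called, and a median of 0.53. Over all genes tested, 35.4% rose and 40.3% fell. TLR3, a sensor of double-stranded RNA, rose by 4.40 ± 0.22, BST2, or tetherin, which holds budding virions at the membrane, by 1.69 ± 0.13, and the helicase MOV10 by 1.35 ± 0.12. The RNA sensors IFIH1 and DDX58, named after their values were seen, were not called higher. IFIH1 was called lower, with a log2 fold change of -1.37, and DDX58, at 0.15, was not called. APOBEC3F, a cytidine deaminase that mutates retroviral DNA, had a log2 fold change of -5.18 ± 0.27. Of 24 genes derived from retroelement gag sequences, 17 were tested, with 2 rises, 13 falls and 2 not called, and a median of -1.07. None of these lists was tested as a set. ARC, which forms capsid-like particles in neurons, had a log2 fold change of -5.23 ± 0.26 and PNMA2 one of -4.93 ± 0.28. PNMA8A and CCDC8 held no olaparib count, at least 1796-fold and 1009-fold lower than in DMSO by the same limit. The 2 that rose, PEG10 and LDOC1, were named after their values were seen. They were 1 without olaparib replicate 1 or 3, and 0 without olaparib replicate 2, DMSO replicate 2 or DMSO replicate 3.

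**Figure D5:**
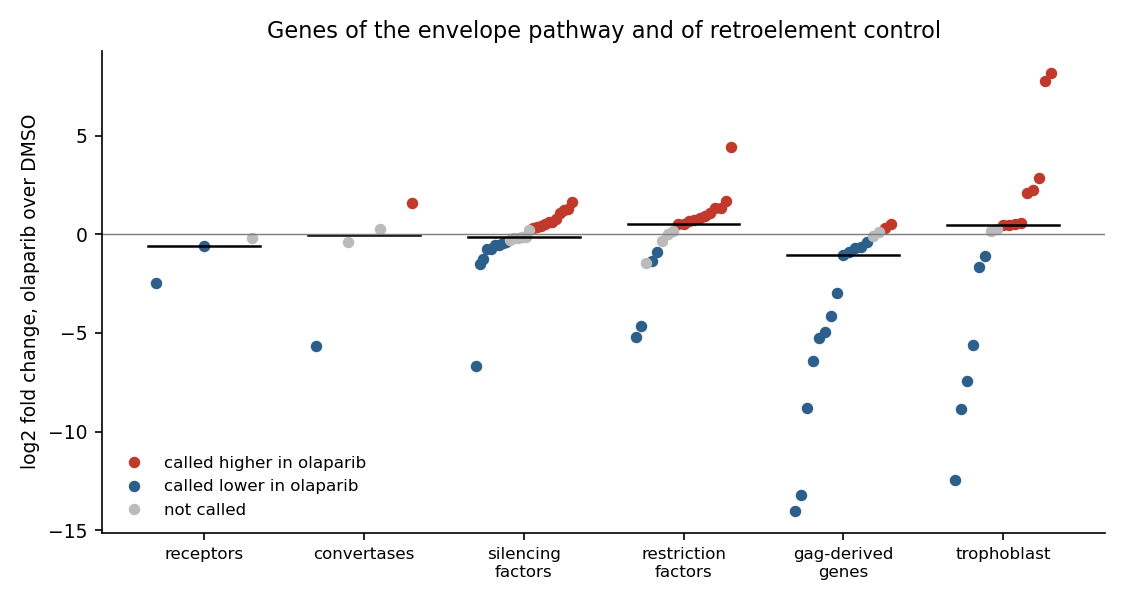
Log2 fold change of olaparib over DMSO (y axis) for each tested gene of 6 lists (x axis), with black bars at the list medians. Red points were called higher in olaparib, blue points lower and grey points were not called; the gag-derived genes lie mostly below 0, and trophoblast genes reach both ends of the scale.

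Since envelope genes are best known from the placenta, 42 trophoblast genes were read beside them. Of these, 13 had no count, 12 were under the filter and 17 were tested. Among the 17 there were 9 rises, 6 falls and 2 not called, where 35.4% of all genes tested rose and 40.3% fell. The median log2 fold change of the 17 was 0.46. The summed level of the 42 genes was 791 to 880 CPM in olaparib libraries and 324 to 375 CPM in DMSO libraries. KRT7, a keratin of many simple epithelia, accounted for 459 ± 77.0 CPM of that level in olaparib and 107 ± 10.9 CPM in DMSO, a rise of 2.11 ± 0.14 on the log2 scale. ADAM12, a metalloprotease of the syncytium, held 4451 olaparib counts against 20 DMSO counts. GATA3 and HAND1, transcription factors of early trophoblast, fell to 2 and 0 counts in olaparib, against 1426 and 2369 in DMSO. Other transcription factors of the list, named after their values were seen, moved in both directions. TFAP2A, TFAP2C and PPARG were called higher, with log2 fold changes of 0.52, 0.58 and 0.48. TEAD4 was called lower, at -1.11, and GATA2 and DLX3 were not called. GCM1, which activates the syncytin genes in trophoblast, did not pass the filter, with 21 counts in olaparib and 33 in DMSO. The placental hormone gene CSH1, the steroid enzyme gene HSD3B1 and PSG1, a pregnancy glycoprotein gene, held no count in either group. These 3 genes, and CGA, CSH2 and PSG4 of the same list, were named after their values were seen. CGA, the alpha subunit shared by chorionic gonadotropin and pituitary hormones, held 8551 counts in olaparib against 52 in DMSO and was called higher. CSH2 was called higher, with 44 counts in olaparib against 12 in DMSO, and PSG4 was called lower, with 64 in olaparib against 273 in DMSO. The remaining called genes of the list were also named after their values were seen. PGF and INSL4 were called lower, with 6 and 2 counts in olaparib against 1437 and 150 in DMSO. HLA-G and SDC1 were called higher, with log2 fold changes of 2.86 and 0.46. The part of cell makeup in the envelope gene differences was not tested.

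Of all genes tested, 35.4% were called higher and 40.3% lower. There were 7 further rows whose symbol begins with ERV, of which 4 were tested, with 1 called higher, 1 lower and 2 not called. ERVFRD-3 passed the expression filter through its olaparib libraries alone and ERVK9-11 through its DMSO libraries alone. The direction of either call was thus set by the filter. ERVFRD-3 rose, with 15, 12 and 10 counts in olaparib and 6, 0 and 0 in DMSO, a log2 fold change of 2.96 ± 0.86 (adjusted p = 0.00755, edgeR). DMSO replicate 1 held all its DMSO counts, and without it the log2 fold change, with the DMSO group set to 3 counts, was at least 3.38. It was 2.33 without DMSO replicate 3. ERVK9-11 was lower, with 3, 10 and 3 counts in olaparib and 36, 21 and 31 in DMSO, a log2 fold change of -2.04 ± 0.53 (adjusted p = 0.00375, edgeR), and -2.80 without olaparib replicate 2. ERVK13-1, the best read of them at 28.6 ± 3.55 CPM in olaparib and 24.4 ± 3.82 CPM in DMSO, was not called (adjusted p = 0.167, edgeR). Nor was ERVK3-1, at 5.26 ± 0.465 CPM in olaparib and 6.18 ± 0.936 CPM in DMSO (adjusted p = 0.303, edgeR). ERVE-1 had no count, and ERVK-28 and ERVH-1 were under the filter.

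Genes with the most similar profile were found by the root mean square difference of log2 CPM, centred on each gene's mean, over the 6 libraries. For ERVV-2 they were TDRD9 at 0.296, SPINK6 at 0.395 and MYO1G at 0.412 log2 units. TDRD9, a helicase that silences transposons in the mouse germ line, had 52.0 ± 1.16 CPM in olaparib and 0.0112 ± 0.0195 CPM in DMSO. For ERVW-1 the nearest were STEAP3-AS1 at 0.432, HAS2 at 0.441 and FRG1DP at 0.533. ERV3-1 had the closest companions, DMXL2 at 0.0674, PTAR1 at 0.0712 and WASHC4 at 0.0813, and WASHC4 averaged 153 ± 0.978 CPM in olaparib and 66.1 ± 12.4 CPM in DMSO. ERVH48-1 was nearest to TFAP2A-AS1 at 0.142, LINC02367 at 0.148 and RN7SL809P at 0.161.

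Upstream sequence was at hand for 4 of the 7 genes in the RefSeq windows of build GRCh38.p14. Of these, the 250 bases before each RefSeq start were read. RefSeq starts need not match the GENCODE gene spans given above. The windows of ERVW-1 and of the second start of ERV3-1 lay within those spans. Those of ERVMER34-1 and of the first start of ERV3-1 overlapped the ends of the spans. CG dinucleotides, the sites of DNA methylation, numbered 19 before ERVMER34-1, 7 and 3 before the separate starts of ERV3-1, 4 before ERVW-1 and 3 before ERVV-1, against a median of 11 over 35116 windows. ERVV-1 and ERV3-1, both higher in olaparib, are shown with CG in capitals, chr19:53013671-53013920 on the plus strand and chr7:65006688-65006937 on the minus strand. Among all windows, 22.9% had fewer CG than that of ERVV-1 and 41.1% fewer than that of ERV3-1.
ERVV-1 upstream: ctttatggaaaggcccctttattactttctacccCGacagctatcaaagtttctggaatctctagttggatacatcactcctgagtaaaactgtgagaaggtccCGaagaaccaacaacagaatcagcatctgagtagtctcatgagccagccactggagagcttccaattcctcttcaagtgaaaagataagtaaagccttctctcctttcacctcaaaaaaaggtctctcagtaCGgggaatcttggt
ERV3-1 upstream: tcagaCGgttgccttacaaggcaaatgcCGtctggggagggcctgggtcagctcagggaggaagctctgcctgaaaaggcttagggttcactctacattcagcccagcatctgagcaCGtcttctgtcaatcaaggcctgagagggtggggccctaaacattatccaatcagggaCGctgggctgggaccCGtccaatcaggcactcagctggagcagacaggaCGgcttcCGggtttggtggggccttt

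Letter matches were sought on both strands for 5 short motifs. CCAAT occurred before ERVV-1, ERVW-1 and the first start of ERV3-1, and in 32.0% of all windows. TATAAA occurred before ERVW-1 and the second start of ERV3-1, and in 10.7% of windows, and GGGCGG before ERVMER34-1 and the second start of ERV3-1, and in 42.6%. TGACG, found in 21.2% of windows, and TGCGGG, in 15.3%, matched none of the 5 windows of these genes. A match describes the letters only.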

How the data were processed

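Per the submitters' processing notes, reads went through fastp and STAR on hg38, and the deposited table holds raw counts of reads for each gene symbol. The sources used here name no counting program, strand setting, annotation or read length. All 39396 symbols were kept, and 99.3% were matched to GENCODE release 29 for positions. Groups and replicate numbers came from the sample titles. The test was edgeR 4.0.16 under R 4.3.3 (its expression filter, TMM scaling, robust quasi-likelihood fit, treatment group as the only term), with p-values adjusted by the Benjamini-Hochberg method over 17078 genes and genes called at 0.05. CPM are counts divided by TMM-scaled library sizes. Errors of levels are SDs over 3 libraries, and SEs of log2 fold changes come from edgeR's F statistics. Ratios of summed counts carry exact conditional 95% intervals, and a group without a count was set to a floor of 3 counts over its libraries. No library repeated another of its group within sampling noise (chi-square per degree of freedom 4.74 to 68.6), so each was counted. The fit was tested on simulated data in which few genes changed, so its error rates where most genes change were not tested.

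The 7 genes and the 8 gene lists (147 entries) were chosen with earlier results of these data known. Genes nearly unread in a group passed the expression filter through the other group alone, which set the direction of their calls. Named beside the 7 genes were all receptors, up to 4 tested members of each other list with the smallest adjusted p, the nearest tested and overlapping neighbours, up to 4 other rows beginning with ERV with the most counts, and the 3 genes closest in profile to each tested member. Genes outside this rule are marked or serve to describe cell markers. The embryonic kidney and colon lists gave NEFM, KRT8 and KRT18 as well, at 0.0118, 581 and 400 CPM in olaparib and 57.7, 175 and 75.3 CPM in DMSO. Some genes that the rule selects are left out of the text. Sequences came from GENCODE 29 transcripts and RefSeq windows, aligned with Biopython 1.88. Alternatives were DESeq2 1.42.0, limma-voom in limma 3.58.1, RLE size factors, library size alone, 2 other filters, the replicate number as a block and the loss of each library in turn.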

Additional observations from a re-analysis of the deposited data

How the results depend on the processing

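With other settings, 5559 to 6653 genes were called higher in olaparib and 6203 to 7573 lower, counting the loss of each library, which gave 5711 to 6191 and 6586 to 7017. Leaving out 1 library gave fitted log2 fold changes of 11.18 to 14.33 for ERVV-2, 1.88 to 2.74 for ERVW-1, 1.09 to 1.45 for ERV3-1 and -0.84 to -0.22 for ERVH48-1. The 14.33 is no bound, since no DMSO count was left, and the log2 fold change was then at least 11.07 against 3 counts. The loss of 1 library gave log2 ratios of 4.36 to 5.98 for ERVV-1 and -2.88 to -0.16 for ERVFRD-1, the lowest without olaparib replicate 1, which held most of its olaparib counts. ERVMER34-1 has no ratio, since it had no olaparib count. Convertases called lower were 2 rather than 1 with library size alone and without a filter beyond 1 count, and the loss of 1 library gave 1 to 2 higher and 1 to 2 lower. Gag-derived genes called higher, 2 otherwise, were 0 with library size alone, 1 without that filter and 0 to 2 with the loss of 1 library. GATAD1, not called, changed sign, at 0.011 with RLE size factors and with DESeq2, 0.018 with at least 1 CPM in 3 libraries, and -0.076 to 0.052 with the loss of 1 library. The causes of these changes were not tested. Of 62 other named genes, 56 kept direction and call under each alternative. Replicate numbers did not pair the libraries, since same-numbered libraries had correlations of deviations of -0.0901, -0.0423 and -0.00173. With the replicate number as a block, 5797 genes were called higher and 6629 lower, 1 gag-derived gene was called higher, and the log2 fold changes were 11.77 for ERVV-2, 2.61 for ERVW-1, 1.28 for ERV3-1 and -0.59 for ERVH48-1. ERVV-1, ERVFRD-1 and ERVMER34-1 did not pass the expression filter, and the cause of their low counts was not tested.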
